A study of Mus musculus with 4 samples.

Results

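The genes described here serve the entry of proteins into the endoplasmic reticulum (ER), their folding there, and the coated vesicles that carry them to the Golgi and back. They were chosen by name. Probes whose names carry an NCBI Gene ID were given the mouse gene symbol, and genes were kept if their symbol belonged to families such as Sec, Ssr, Spcs, Srp, Tmed, Cop, Trappc, Dnaj, Edem, Derl, Lman and Golga. Of 170 mouse genes with such symbols, 75 had a matched probe on the array, and 52 of these had a probe detected on at least 2 of the 4 arrays (detection p under 0.05). These 52 are the tested members, out of 15215 features and 3983 genes with a symbol tested in all. The other 118 genes were not tested.

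Secretory and membrane proteins carry a signal sequence that the signal recognition particle (SRP) binds as it leaves the ribosome. The particle hands the ribosome to its receptor and to the Sec61 translocon, the signal is cut off, sugars are added, and chaperones and disulfide isomerases fold the chain in the ER lumen. COPII-coated vesicles then carry cargo forward and COPI-coated vesicles return escaped ER proteins. Antibody-secreting cells enlarge this apparatus, and XBP1 is the transcription factor best known for driving that growth.

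The cells were mouse B cells of C57BL/6 background lacking Prdm1, which encodes Blimp-1, a driver of plasma cell differentiation. All had been cultured for 4 days with CD40 ligand, IL-4 and IL-5 (10 U/mL of each interleukin) and then sorted by GFP fluorescence into GFP-positive cells, whose cell type is given as pre-plasmablasts, and GFP-negative cells, whose cell type is given as B cell blasts. The sample titles call both groups B cell blasts. Both groups carry the Prdm1 deletion, so neither is a wild-type control. Each group had 2 arrays. The labels name neither the locus that carries GFP nor the sex or age of the mice, and do not say whether replicates came from separate cultures, so the spread behind the p-values is that of the arrays and may be technical. Levels are deposited normalized intensities on a log2-like scale, and changes are GFP-positive minus GFP-negative in log2 units with the standard error (SE) of the limma fit across all 15215 features. A gene was called at a Benjamini-Hochberg adjusted p under 0.05, and "rose" and "fell" are used of called genes.

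The eGFP probe read 12.75 and 12.72 in GFP-positive cells, against 9.28 and 9.39 in GFP-negative cells. Of 17 B-cell markers, 3 had a matched probe, Cd72, Fcer2a and Ebf1. All 3 were detected in both groups and fell in GFP-positive cells, against 5.29% of all tested features. Of the plasma cell markers, 4 of 5 tested rose (Pim2, Jchain, Xbp1 and Ell2), against 5.83% of all tested features. The other, Tnfrsf13b, was detected on 4 arrays and was not called (change -0.02, adjusted p = 0.952). The probe of Sdc1, which encodes syndecan-1, was detected on 0 arrays. Jchain was detected on 2 arrays and read 9.84 and 9.34 in GFP-positive cells, against 8.16 and 7.95 in GFP-negative cells. The latter lay in the range of undetected probes (7.88 to 8.16), so its call is not independent of the detection filter. T-cell markers were near background: Cd3e, Cd8b1 and Trat1 were detected on 0 arrays, and Il7r and Cd247, each detected on 2 arrays, were not called. Of 10 myeloid markers with a probe, Csf1r, Csf3r, Mpo, Fcgr3, Lyz1, Clec7a and S100a9 were detected on 0 arrays and Lyz2 on 1. Itgam, detected on 2 arrays, read 8.30 and 8.28 in GFP-positive cells, against 7.96 and 7.98 in GFP-negative cells (adjusted p = 0.0562). Cd68 read 9.16 and 9.02, against 8.87 and 8.65 (adjusted p = 0.128). The summed level of Itgam and Cd68 lay between 17.3 and 17.5 in GFP-positive cells and between 16.6 and 16.8 in GFP-negative cells. The GFP-negative values of Itgam lay in the range of undetected probes, so this sum is not independent of the detection filter. The part of both genes in the results was not tested. In bulk RNA, more cells of a type and more RNA per cell cannot be told apart.

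Of the 52 tested members, 11 rose in GFP-positive cells, 0 fell and 41 were not called. They were Spcs2, Sec61b, Ssr4, Edem2, Tmed2, Tmed10, Ssr3, Sec63, Sec24a, Lman1 and Dnajc25, with changes from 0.39 to 1.05. The 11 make up 21.2% of the members, where 5.83% of all tested features rose and 5.29% fell. At an unadjusted p under 0.05 (limma), 17 members were higher and 0 lower, against 1835 higher and 2215 lower of all 15215 features. The median change of the members was 0.10, against -0.02 over all features. Both GFP-positive arrays lay above both GFP-negative arrays for 25 members (48.1%) and below them for 9 (17.3%), where the shares over all features were 24.9% and 31.0%. Among the 48 members detected on all 4 arrays, the counts were 23 (47.9%) and 8 (16.7%). All 11 called members were detected on all 4 arrays, as were 48 of the 52. The calls were spread unevenly over the roles: 4 of 5 tested translocon members and 3 of 5 cargo receptors rose, against 0 of 10 tethers and Golgi matrix members and 1 of 15 of the J-domain proteins that do not belong to the lumenal group. These differences between roles were not tested.

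**Figure D1:**
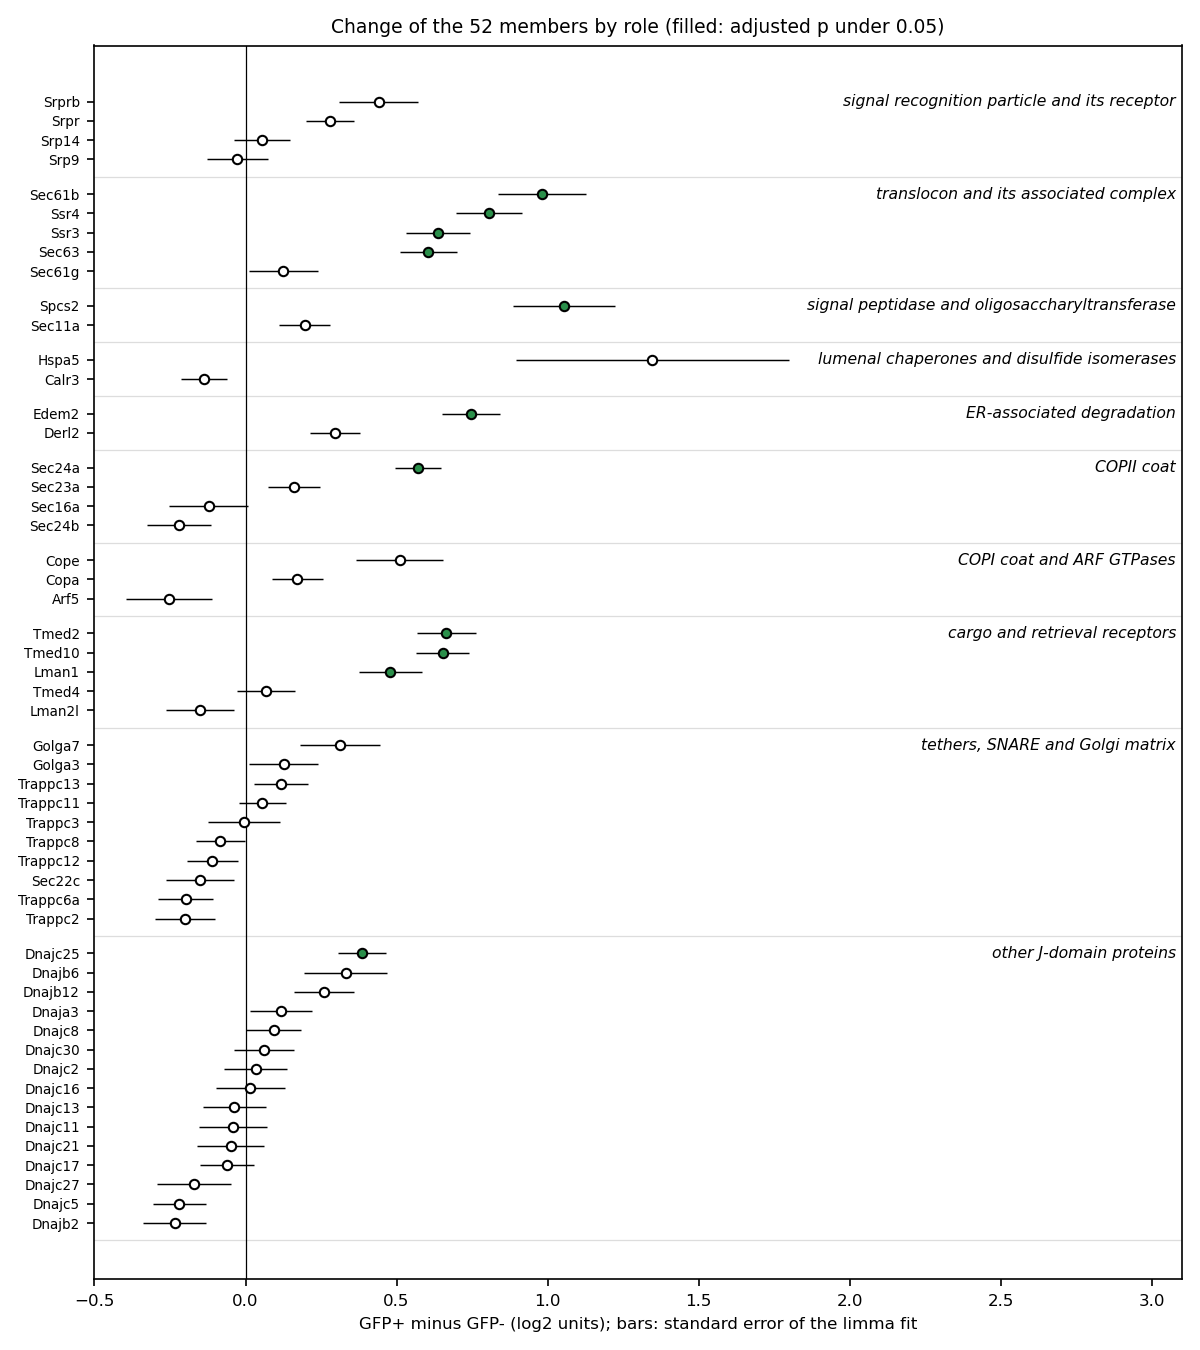
Change (GFP-positive minus GFP-negative, log2 units, horizontal axis) of each of the 52 tested members, grouped by role, with bars for the SE of the limma fit and filled points for an adjusted p under 0.05. The 11 filled points all lie to the right of 0, and Hspa5, which was not called, has the widest bar.

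**Figure D2:**
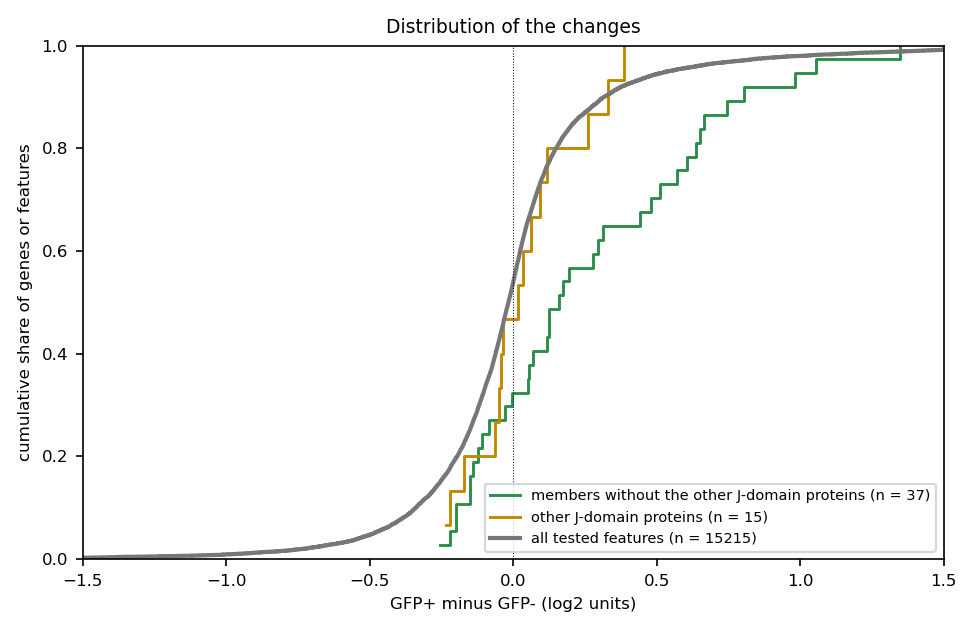
Cumulative share of genes or features (vertical axis) by change in log2 units (horizontal axis). The 37 members without the other J-domain proteins (median 0.16) lie to the right of all 15215 features (median -0.02), and the 15 other J-domain proteins (median 0.02) lie near them.

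The translocon and the complex attached to it held the densest set of increases among the roles, with 4 of 5 tested members called. Sec61b, the beta subunit of the Sec61 channel through which chains cross the membrane, read 12.55 and 12.88 in GFP-positive cells, against 11.86 and 11.61 in GFP-negative cells. Its lowest GFP-positive value was well above its highest GFP-negative value, and the change was 0.98 (SE 0.15, adjusted p = 0.0154). A second Sec61b probe had a change of 0.72 (adjusted p = 0.0183 where each detected probe was tested by itself, a fit in which 5.81% of probes were higher). Ssr4, the delta subunit of the translocon-associated protein complex, read 13.63 and 13.79 in GFP-positive cells, against 13.01 and 12.80 in GFP-negative cells, a change of 0.81 (SE 0.11, adjusted p = 0.0122). Ssr3, the gamma subunit of the same complex, read 10.46 and 10.37, against 9.89 and 9.66 in GFP-negative cells, a change of 0.64 (SE 0.11, adjusted p = 0.0218). Both subunits were higher on both GFP-positive arrays than on either GFP-negative array.

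Sec63, a membrane J-domain protein that couples the channel to the lumenal chaperone BiP, read 11.11 and 11.30 in GFP-positive cells, against 10.61 and 10.59 in GFP-negative cells. The groups did not overlap, and the change was 0.61 (SE 0.09, adjusted p = 0.0173). A second Sec63 probe had a change of 0.43 (adjusted p = 0.0829). Sec61g, the gamma subunit of the channel, read 13.10 and 13.37 in GFP-positive cells, against 13.14 and 13.07 in GFP-negative cells, so its groups overlapped (change 0.13, adjusted p = 0.558). Omitting any single array left Sec61b called (adjusted p up to 0.0475). Ssr4 missed the threshold once GFP-positive replicate 2 was omitted (adjusted p = 0.0537). For Ssr3 this happened in 3 of 4 cases: the adjusted p was 0.0939 on omitting GFP-positive replicate 1, 0.0637 on omitting GFP-positive replicate 2 and 0.0777 on omitting GFP-negative replicate 2. For Sec63 it also happened in 3 of 4: the adjusted p was 0.0622 on omitting GFP-positive replicate 2, 0.0514 on omitting GFP-negative replicate 1 and 0.0714 on omitting GFP-negative replicate 2.

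**Figure D3:**
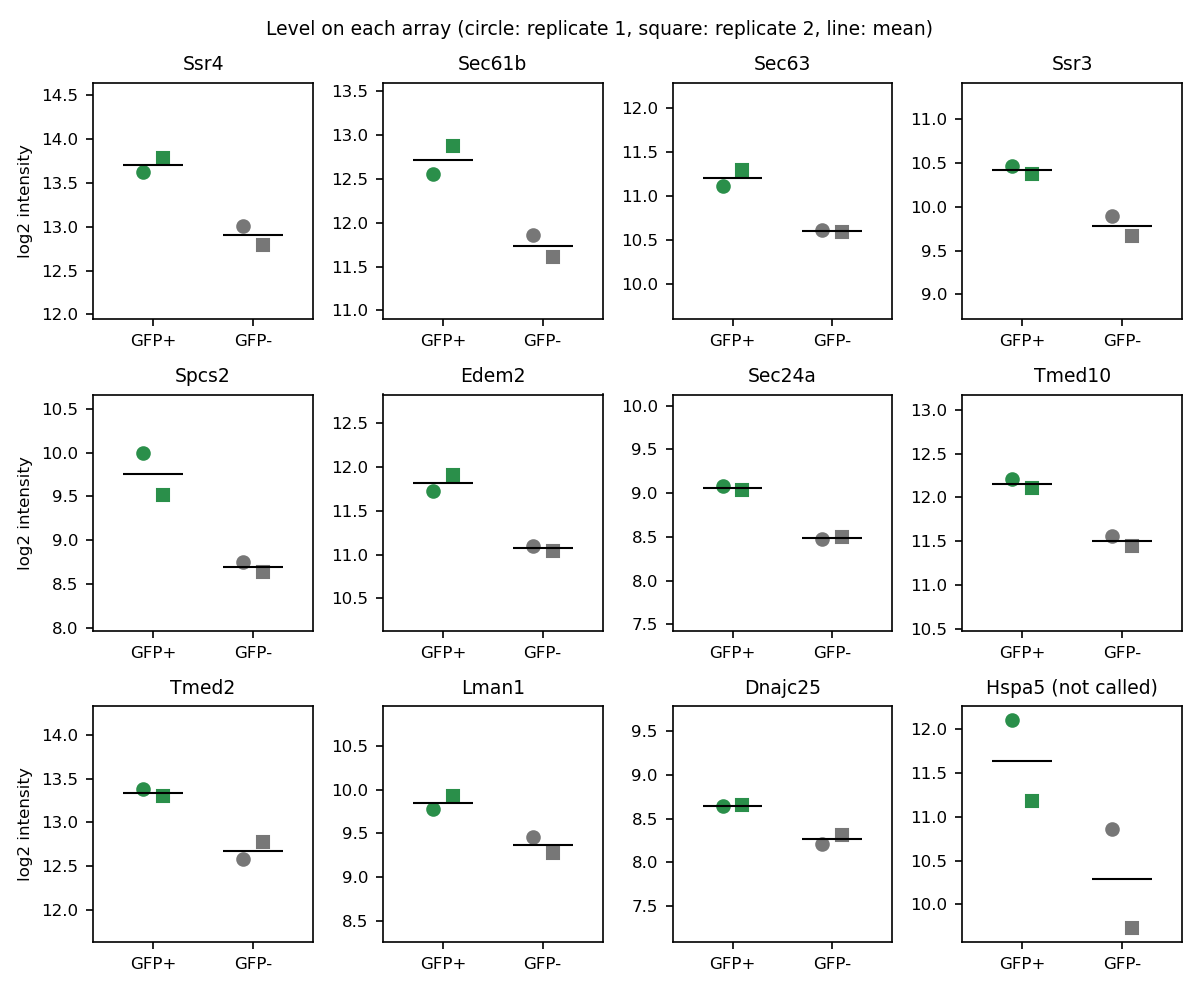
Level on each array (log2 intensity, vertical axis, all panels spanning the same height) of the 11 called members and Hspa5, with GFP-positive cells on the left and GFP-negative cells on the right of each panel, circles for replicate 1, squares for replicate 2 and a line at the mean. The groups do not overlap in any of the 12 panels. The 11 called members were picked by their call, which favours separated groups, and 24.9% of all tested features had GFP-positive above GFP-negative without overlap. Hspa5 has the widest spread within each group, from 11.18 to 12.10 in GFP-positive cells and from 9.73 to 10.86 in GFP-negative cells.

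Upstream of the channel, 0 of 4 members of the SRP and its receptor were called (limma). Of these, 2 passed an unadjusted p under 0.05, against 1835 higher and 2215 lower of all 15215 features. Both receptor subunits had positive changes without overlap. Srpr, the alpha subunit of the SRP receptor, read 11.37 and 11.30 in GFP-positive cells, against 11.03 and 11.09 in GFP-negative cells, a change of 0.28 (SE 0.08, adjusted p = 0.0935). A second Srpr probe of slightly lower mean changed by 0.49 (adjusted p = 0.0197 by itself), and with the mean of both probes in place of the brighter one Srpr was called (change 0.39, adjusted p = 0.0340). Srprb, the membrane-anchoring beta subunit, read 10.04 and 10.11, against 9.46 and 9.81 in GFP-negative cells (change 0.44, SE 0.13, adjusted p = 0.102), and it was called without GFP-negative replicate 2 (change 0.62, adjusted p = 0.0469), while its change was 0.27 without GFP-negative replicate 1. Its dimmer probes had changes of 0.17 and -0.12. The particle's Alu-domain subunits Srp14 and Srp9 had changes of 0.05 (adjusted p = 0.786) and -0.03 (adjusted p = 0.910), with overlapping groups.

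Among enzymes that act on the entering chain, Spcs2 had the largest change of the called members with all arrays, and Sec61b on omitting GFP-positive replicate 1 (1.14, against 0.81 for Spcs2). It encodes a subunit of the signal peptidase, and read 9.99 and 9.51 in GFP-positive cells, against 8.76 and 8.64 in GFP-negative cells. All GFP-positive values were higher, with a change of 1.05 (SE 0.17, adjusted p = 0.0192). Omitting GFP-negative replicate 2 ended the call (adjusted p = 0.0592). Sec11a, a catalytic subunit of the same peptidase, read 13.10 and 13.23 in GFP-positive cells, against 12.97 and 12.98 in GFP-negative cells (change 0.20, SE 0.09, adjusted p = 0.225). Its groups did not overlap either, with a smaller change.

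Hspa5 encodes BiP, the main lumenal chaperone of the ER and a standard readout of the unfolded protein response. It read 12.10 and 11.18 in GFP-positive cells, against 10.86 and 9.73 in GFP-negative cells. Replicate 1 was higher than replicate 2 in both groups, and the lowest GFP-positive value stood only slightly above the highest GFP-negative value. Its change was 1.35 with all arrays, and with an SE of 0.45 it was not called (adjusted p = 0.132). Its size depended on the arrays used. On omitting GFP-negative replicate 1 the change was 1.91 and was called (adjusted p = 0.0332), and on omitting GFP-positive replicate 2 it was 1.81 (adjusted p = 0.106). On omitting GFP-negative replicate 2 it was 0.78 (adjusted p = 0.331), and on omitting GFP-positive replicate 1 it was 0.88 (adjusted p = 0.383), below the change of Sec61b in both cases. The only other tested member of the lumenal group was Calr3, a calreticulin best known from testis, which was detected on 2 arrays and read 8.15 and 8.16 in GFP-positive cells, against 8.28 and 8.31 in GFP-negative cells (change -0.14, adjusted p = 0.326). Its GFP-positive values lay in the range of undetected probes, so its change is not independent of the detection filter. Canx, Dnajc1 and Dnajc10 were detected on 0 arrays and Dnajb9 on 1.

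Promoters of the members were searched for the elements best known from genes of the unfolded protein response. The windows, from RefSeq on GRCm38.p6, run from 250 bases before to 50 bases after each annotated start, and 44 of the 52 members had an entry, with 48 windows in all. The ER stress response element (CCAAT and CCACG with 9 bases between them, searched on both strands) was in 1 window, that of Hspa5, which is 2.08% of the members' windows and compares with 0.119% of all 32851 windows in the table. The related element ATTGG, 1 base and CCACG was in 0 member windows and 0.0365% of all windows. The core TGACGTGG of the unfolded protein response element was in 2 member windows (4.17%), those of Dnajc25 and Sec23a, against 0.926% of the windows of all tested genes and 0.676% of all windows. Its last 5 bases read as CCACG on the other strand, a sequence that stood in 54.2% of member windows, 46.3% of the windows of all tested genes and 32.8% of all windows. Of the 9 called members with an entry, 1 held the TGACGTGG core and 0 held the longer elements. A match describes letters in a window and not a bound site, and a window without one shows only that these letters are not in it.

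The windows with a match are shown so that the position of each element can be seen. They are Hspa5 (chr2:34771840-34772139, plus strand), with the element at -65 to -47 from the annotated start, Dnajc25 (chr4:59002943-59003242, plus strand), with the core at -49 to -42, and Sec23a (chr12:59011968-59012267, minus strand), with the core at 6 to 13. Positions count the annotated start as 0, each window is printed 5′ to 3′ along the gene, and capitals mark the matched element with any bases between its parts.
Hspa5: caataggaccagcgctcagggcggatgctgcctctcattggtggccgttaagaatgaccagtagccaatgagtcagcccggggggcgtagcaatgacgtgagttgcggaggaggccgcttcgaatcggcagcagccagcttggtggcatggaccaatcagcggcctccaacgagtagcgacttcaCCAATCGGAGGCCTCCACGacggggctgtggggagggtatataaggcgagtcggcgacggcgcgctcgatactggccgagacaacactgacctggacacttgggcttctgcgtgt
Dnajc25: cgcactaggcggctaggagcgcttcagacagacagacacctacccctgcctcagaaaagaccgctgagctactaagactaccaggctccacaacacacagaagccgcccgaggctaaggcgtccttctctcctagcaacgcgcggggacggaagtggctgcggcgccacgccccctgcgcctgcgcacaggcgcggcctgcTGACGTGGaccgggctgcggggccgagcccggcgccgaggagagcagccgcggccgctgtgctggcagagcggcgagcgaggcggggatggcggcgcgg
Sec23a: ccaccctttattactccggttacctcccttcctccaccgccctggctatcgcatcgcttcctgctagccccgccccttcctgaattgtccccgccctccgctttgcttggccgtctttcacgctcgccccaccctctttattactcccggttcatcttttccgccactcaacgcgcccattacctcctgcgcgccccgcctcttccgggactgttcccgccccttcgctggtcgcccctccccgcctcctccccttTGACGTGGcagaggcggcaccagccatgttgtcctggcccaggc

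In ER-associated degradation, which returns misfolded chains to the cytosol, Edem2 rose. It belongs to a family that trims mannose from glycans of misfolded proteins, and read 11.72 and 11.91 in GFP-positive cells, against 11.10 and 11.04 in GFP-negative cells. The change of 0.75 (SE 0.10) had the smallest adjusted p of the members, 0.0103, and omitting any single array kept it called (adjusted p up to 0.0434). Derl2, a derlin of the exit channel, read 9.73 and 9.82 in GFP-positive cells, against 9.44 and 9.52 in GFP-negative cells, without overlap (change 0.30, SE 0.08, adjusted p = 0.0889). Edem3 was detected on 0 arrays.

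Of 4 tested members of the COPII coat, Sec24a alone was called. It encodes an isoform of the coat's cargo-binding subunit, and read 9.08 and 9.03 in GFP-positive cells, against 8.48 and 8.50 in GFP-negative cells, a change of 0.57 (SE 0.08, adjusted p = 0.0116). The replicates of each group lay close together. The isoform Sec24b read 9.87 and 10.02 in GFP-positive cells, against 10.06 and 10.27 in GFP-negative cells, a negative change without overlap that was not called (-0.22, SE 0.11, adjusted p = 0.272). Sec23a, the coat's GTPase-activating subunit, changed by 0.16 (adjusted p = 0.316), and Sec16a, which organises ER exit sites, by -0.12 (adjusted p = 0.633). Sec24a was no longer called on omitting GFP-positive replicate 1, where its adjusted p was 0.0575, or on omitting GFP-negative replicate 2, where it was 0.0538.

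Receptors that gather cargo into vesicles rose in 3 of 5 cases. Tmed10 and Tmed2 are partners in the transmembrane complexes that sort glycosylphosphatidylinositol-anchored and other cargo. Tmed10 read 12.21 and 12.10 in GFP-positive cells, against 11.56 and 11.44 in GFP-negative cells, a change of 0.65 (SE 0.09, adjusted p = 0.0120). Tmed2 read 13.38 and 13.30, against 12.58 and 12.77 in GFP-negative cells, a change of 0.67 (SE 0.10, adjusted p = 0.0154), and its dimmer probe changed by 0.91 (adjusted p = 0.0232 by itself). Both partners were higher on both GFP-positive arrays, without overlap. Lman1, a mannose-binding receptor for glycoproteins leaving the ER, read 9.77 and 9.93 in GFP-positive cells, against 9.46 and 9.28 in GFP-negative cells, a change of 0.48 (SE 0.10, adjusted p = 0.0460). That call stood just inside the threshold: it ended on omitting any single array (adjusted p between 0.0574 and 0.184), with an intensity trend in the fit (adjusted p = 0.0526) and without the detection filter (adjusted p = 0.0562).

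Its relative Lman2l (-0.15, adjusted p = 0.474) and Tmed4 (0.07, adjusted p = 0.725) had overlapping groups, and probes of each disagreed in sign. Tmed10 was no longer called on omitting GFP-positive replicate 1, where its adjusted p was 0.0577, or GFP-negative replicate 2, where it was 0.0563. Tmed2 was no longer called on omitting GFP-positive replicate 1, where its adjusted p was 0.0715, or GFP-positive replicate 2, where it was 0.0528. Kdelr2, a receptor that retrieves escaped ER proteins, and Tmed5 were detected on 0 arrays.

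The COPI coat and its ARF GTPases had 0 calls among 3 members (limma). Of these, 1 passed an unadjusted p under 0.05, against 1835 higher and 2215 lower of all 15215 features. Cope, the epsilon subunit of the coat, read 12.03 and 12.29 in GFP-positive cells, against 11.81 and 11.50 in GFP-negative cells, without overlap (change 0.51, SE 0.14, adjusted p = 0.0894). Its other probes, both dimmer and both with less spread, had changes of 0.46 (adjusted p = 0.0426 by itself) and 0.53 (adjusted p = 0.0329 by itself), and the mean of its 3 probes was called (change 0.50, adjusted p = 0.0336). Copa, the alpha subunit, read 11.42 and 11.48, against 11.33 and 11.23 in GFP-negative cells (change 0.17, adjusted p = 0.268). Arf5, a GTPase of the Golgi, read 10.99 and 10.97 in GFP-positive cells, against 11.04 and 11.43 in GFP-negative cells (change -0.25, SE 0.14, adjusted p = 0.339). That change was -0.05 on omitting GFP-negative replicate 2, the higher of its arrays, and -0.45 on omitting GFP-negative replicate 1.

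No tether, SNARE or Golgi matrix gene was called (0 of 10, limma). At an unadjusted p under 0.05 the role also held 0, against 1835 higher and 2215 lower of all 15215 features. Changes ran from -0.20 (Trappc2 and Trappc6a, subunits of the TRAPP tethering complex) to 0.31 (Golga7). Golga7, a cofactor of protein palmitoylation at the Golgi, was detected on 2 arrays and read 8.60 and 8.25 in GFP-positive cells, against 8.15 and 8.07 in GFP-negative cells (SE 0.13, adjusted p = 0.217). Its GFP-negative values lay in the range of undetected probes (7.88 to 8.16), so its change is not independent of the detection filter. Its change was 0.13 on omitting GFP-positive replicate 1 and 0.49 on omitting GFP-positive replicate 2. Of the 7 TRAPP subunits tested, 2 had positive and 5 negative changes, and Trappc3 (-0.01) turned positive after cyclic loess, and the median over all 10 members of the role was -0.04.

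The remaining 15 J-domain proteins, co-chaperones of the cytosol, nucleus, mitochondria or ER membrane, had a median change of 0.02, and 1 rose. Dnajc25, a membrane protein with a J domain, read 8.64 and 8.66 in GFP-positive cells, against 8.21 and 8.31 in GFP-negative cells, a change of 0.39 (SE 0.08, adjusted p = 0.0415). It stood near the dim end of the scale, and omitting any single array ended its call (adjusted p between 0.111 and 0.157). Dnajb6 (0.33, adjusted p = 0.202) and Dnajb12 (0.26, adjusted p = 0.170) had positive changes without overlap, and Dnajb2 (-0.23, adjusted p = 0.233) and Dnajc5 (-0.22, adjusted p = 0.189) negative ones. The other 10 had changes from -0.17 to 0.12.

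**Figure D4:**
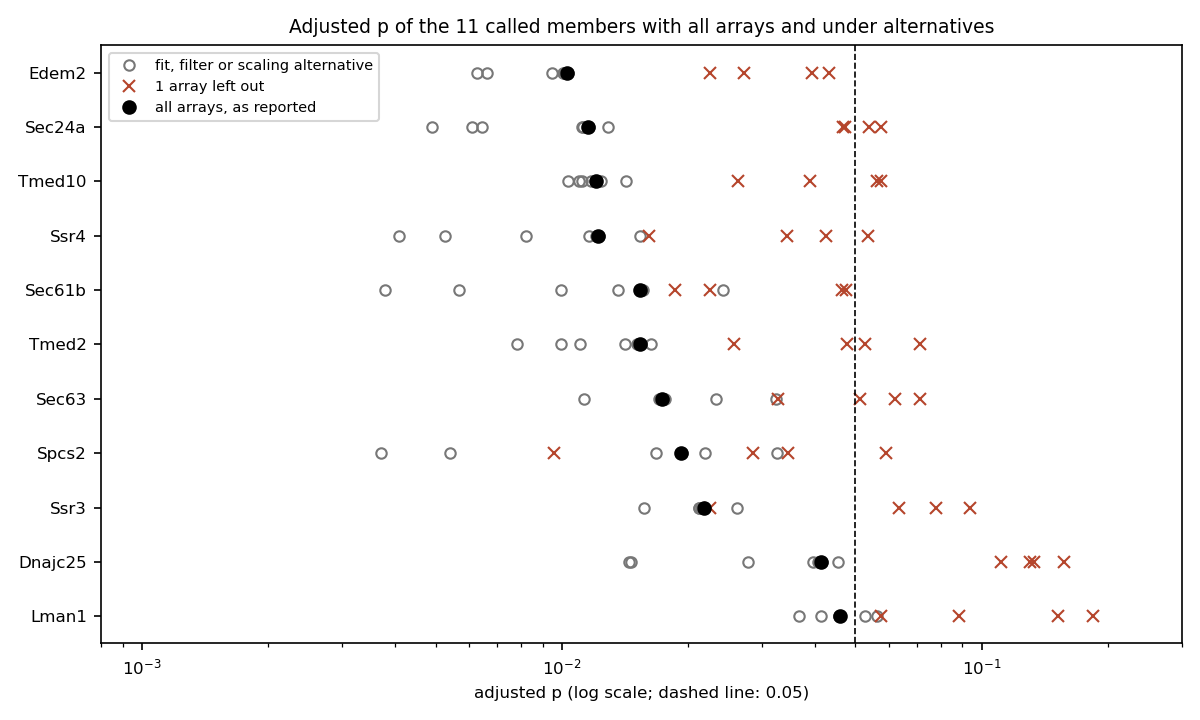
Adjusted p (horizontal log axis, dashed line at 0.05) of the 11 called members with all arrays (filled), with 1 array left out (crosses) and under the other fits, filters and scalings without a block (open circles). Edem2 and Sec61b stay left of the line in every case drawn, while all crosses of Lman1 and Dnajc25 lie to its right.

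Of the 11 called members, 2 (Edem2 and Sec61b) stayed called on omitting any single array, 7 lost it in some of the 4 cases, and 2 lost it in all 4. The count of called members depended on the arrays used, as did the counts over all features. Among members with a further detected probe, 7 of 11 had the same sign at all probes, including all 3 called ones (Sec61b, Sec63 and Tmed2).

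The detection filter bounds what can be said of the remaining genes. Just inside it, Calr3, Dnajc11 and Golga7 were detected on 2 arrays and had changes of -0.14, -0.04 and 0.31. Just outside it, Dnajb9 and Golga4 were detected on 1 array and had changes of -0.03 and -0.02, with levels between 8.04 and 8.26. The 26 probes of the 23 genes below the filter, 21 of them detected on 0 arrays, had mean levels from 7.90 to 8.17 and changes from -0.12 to 0.12, in the range where this scale is nearly flat. A probe detected on 0 arrays does not show that the gene is silent. Tmed10 and Derl2 each had a second probe detected on 0 arrays (mean levels 8.01 and 8.12), while their chosen probes were detected on 4 arrays.

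Genes of the same pathway whose symbols lie outside these families were read from lists chosen for this purpose. Over all tested features 5.83% rose and 5.29% fell, and no list was tested as a set. Of 4 tested sensors and regulators of the unfolded protein response, Xbp1 rose, with 14.61 and 14.84 in GFP-positive cells, against 13.71 and 13.98 in GFP-negative cells (change 0.88, SE 0.13, adjusted p = 0.0161, and 0.0601 without GFP-positive replicate 2). Ppp1r15b, Mbtps2 and Nfe2l1 were not called. In ER-associated degradation, Sel1l, the adaptor of the HRD1 ubiquitin ligase, rose by 0.70 (SE 0.09, adjusted p = 0.0113, and 0.0526 without GFP-positive replicate 2). It read 10.41 and 10.52 in GFP-positive cells, against 9.69 and 9.83 in GFP-negative cells. The other 5 tested genes of that list were not called.

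Among 4 tested ER chaperones and prolyl isomerases, Fkbp2, a lumenal prolyl isomerase, rose by 0.62 (SE 0.12, adjusted p = 0.0342), with 11.45 and 11.76 in GFP-positive cells, against 10.97 and 11.01 in GFP-negative cells. Its adjusted p was 0.0773 on omitting GFP-positive replicate 2, 0.0879 on omitting GFP-negative replicate 1 and 0.0980 on omitting GFP-negative replicate 2. Of 14 COPII regulators, SNAREs and tethers, Yipf6, a multipass Golgi protein, was the 1 called, with a change of 0.52 (SE 0.10, adjusted p = 0.0320) that was no longer called on omitting any single array (adjusted p between 0.0574 and 0.131) and with the mean of its probes (change 0.27, adjusted p = 0.104). That 1 call of 14 is close to the 5.83% of all tested features that rose. No gene was called among 12 of oxidative folding, 10 of N-glycan assembly and 7 other translocation factors (limma, 0 in each). At an unadjusted p under 0.05 these lists held 3, 2 and 2, against 1835 higher and 2215 lower of all 15215 features. Among those, Ero1b and Dpm2 were lower and the rest higher. Changes were positive for 9 of the 12, 7 of the 10 and 5 of the 7 genes. The smallest adjusted p of these lists belonged to Ero1b, an oxidase that recharges disulfide isomerases (change -0.40, adjusted p = 0.124), to Dpm2 of dolichol-phosphate mannose synthesis (-0.26, adjusted p = 0.126) and to Tmco1, an ER membrane protein (0.39, adjusted p = 0.0673). Tmco1 passed after cyclic loess (adjusted p = 0.0322).

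Chaperones of other compartments and coats of later transport steps held 5 called genes, all lower in GFP-positive cells, where 5.29% of all features fell. Of 13 cytosolic chaperones, 2 fell and 0 rose, while 7 had positive changes and the median was 0.01. Pfdn5, a prefoldin subunit, read 12.97 and 13.18 in GFP-positive cells, against 13.98 and 13.92 in GFP-negative cells (change -0.88, SE 0.10, adjusted p = 0.00753), and Hsp90ab1, the constitutive cytosolic HSP90, read 13.27 and 13.19, against 13.73 and 13.83 (change -0.55, SE 0.08, adjusted p = 0.0168). Of 4 mitochondrial chaperones all had negative changes and Hspa9, the mitochondrial counterpart of BiP, fell, with 10.45 and 10.57 in GFP-positive cells, against 11.04 and 11.16 in GFP-negative cells (change -0.59, SE 0.09, adjusted p = 0.0168). Of 13 clathrin coat and adaptor genes, 2 fell and 0 rose, while 7 had positive changes and the median was 0.02. They were Gga2, a Golgi adaptor for sorting to endosomes (change -0.93, SE 0.09, adjusted p = 0.00385), and Ap1b1, a large subunit of the AP-1 adaptor (change -0.59, SE 0.08, adjusted p = 0.0110). Omitting any single array left Gga2 and Pfdn5 called. Ap1b1 had an adjusted p of 0.0548 on omitting GFP-positive replicate 1. Hspa9 had an adjusted p of 0.0752 on omitting GFP-positive replicate 1 and 0.0778 on omitting GFP-negative replicate 2. Hsp90ab1 missed the threshold in 3 of the 4 cases (adjusted p 0.0565 to 0.0834).

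**Figure D5:**
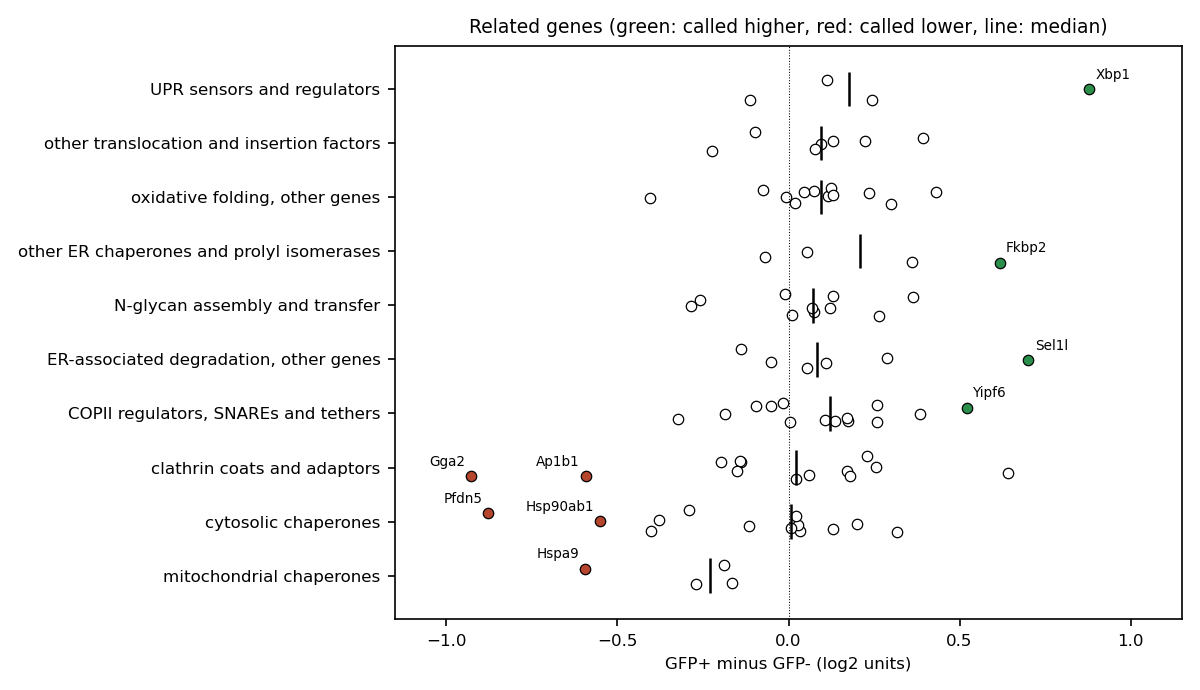
Change (GFP-positive minus GFP-negative, log2 units, horizontal axis) of each tested gene in 10 lists related to the members, spread vertically at random within a list, with green for called higher, red for called lower and a line at the median. The called genes of the ER lists are Xbp1, Fkbp2, Sel1l and Yipf6 to the right of 0, and those of the clathrin, cytosolic and mitochondrial lists all lie to the left of 0. Over all tested features 5.83% rose and 5.29% fell, and differences between the lists were not tested.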

How the data were processed

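RNA of 4 sorted samples, 2 per group, was hybridised to Illumina bead arrays. The deposited intensities, on a log2-like scale, were normalized by the authors with lumi, per the submitters' processing notes. Its version and background correction were not given in these sources. Sorted values of the arrays differed by at most 0.00267, and probes detected on no array lay mostly between 7.88 and 8.16, so changes of dim probes are likely understated. The deposited detection p-values were counted over arrays without assigning columns to samples. The 4 signal columns of that table carry names that match no sample and were not used.

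Of 45992 probes, 15787 were detected (p under 0.05) on at least 2 arrays. Gene IDs read from probe names gave symbols from RefSeq (GRCm38.p6). The brightest detected probe by mean level stood for a gene, and probes without a symbol were kept as features. The difference between groups came from limma 3.58.1 (lmFit, eBayes; R 4.3.3) without a block, on 2 residual and 3.40 prior degrees of freedom, by a two-sided test, with Benjamini-Hochberg adjustment over all 15215 features. The same functions were tested on simulated data. With 2 arrays against 2, the smallest exact permutation p is 0.333. Precision is limited by having few arrays.

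Members, lists and tests were chosen with earlier results of these data known. In each role, up to 4 called members with the smallest adjusted p were described in full, or the member with the smallest where none was called. In each related list, up to 3 called genes, or the one with the smallest adjusted p where none was called, were named. Other members and genes were named after their values were seen. Searches of protein ends and active sites were planned and not run, since no protein sequences were used here. Alternatives were a replicate block, each array left out, an intensity trend, the trend with robust fitting, other detection filters, probe means, cyclic loess and median centring. A gene of the related lists is not reported here.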

Additional observations from a re-analysis of the deposited data

How the results depend on the processing

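The median change of the members stayed positive under all 12 alternatives (0.04 to 0.16), and 0 members were lower in each. The count of members called higher was 10 to 13 with an intensity trend, robust fitting, other detection filters, probe means, cyclic loess or median centring, and 5 to 9 with 1 array left out. The left-out arrays also gave 492 to 618 features higher and 336 to 610 lower. A replicate block in the fit gave 1861 features higher, 2125 lower and 18 members higher. For the trend, robust, filter, probe mean, loess and centring settings, counts over all features are not given here. Their member counts are therefore not read against a background. The members added by the block were Hspa5 (adjusted p = 3.53e-09), Srprb (adjusted p = 0.00252), Cope (adjusted p = 0.00254), Dnajb6 (adjusted p = 0.0132), Derl2 (adjusted p = 0.0254), Golga7 (adjusted p = 0.0261) and Srpr (adjusted p = 0.0371), all with a positive change, and outside the members Tmco1 (adjusted p = 0.00609) and, with a negative change, Ero1b (adjusted p = 0.00393). Deviations of same-numbered arrays had a correlation of 0.44 across 15215 features, which are not independent replicates. Their signs were the same in 8663 of these features and in 26 of the 52 members. The labels do not state a pairing, and with 2 pairs this correlation does not establish one. The block fit has 1 residual degree of freedom, so its adjusted p-values rest mostly on variance pooled over features and on an unstated pairing. With the block the SE of Hspa5 was 0.10, against 0.45 without it. The block call of Golga7 is also not independent of the detection filter. The cause of the lost calls was not tested; fits with 1 array left out have 1 residual degree of freedom and take the lone array to vary like the other group. Of the members, several with changes near 0 turned sign in some alternatives, none of them called. Dim probes limit what can be seen of the 23 genes below the detection filter.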

Other observations

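Among the members and the related and marker genes, the widest spread within groups belonged to Hspa5 (SE 0.45), followed by Clta, the clathrin light chain A (SE 0.32), and Selenof, a selenoprotein of the ER lumen (SE 0.29). These genes were picked after their values were seen. Clta read 10.86 and 10.04 in GFP-positive cells, against 10.10 and 9.51 in GFP-negative cells. Selenof read 9.49 and 8.75 in GFP-positive cells, against 8.95 and 8.43 in GFP-negative cells. In both genes, as in Hspa5, replicate 1 was above replicate 2 in each group, and neither was called (adjusted p = 0.279 and 0.416). Hsp90aa1, the inducible cytosolic HSP90, had the same order of replicates with 12.31 and 11.51 in GFP-positive cells, against 11.71 and 11.47 in GFP-negative cells (adjusted p = 0.520).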
